A study of Rattus norvegicus with 9 samples.

Results

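The comparison set the spinal cord of rats with spared nerve injury that had received paeoniflorin and liquiritin (PLM, n = 3) against the spinal cord of sham-operated rats that had received saline (JA, n = 3), and asked what in the treated injured cord stayed away from sham. These are 6 of the 9 sequenced samples, chosen by their labels alone. All were wild-type Sprague Dawley rats, and the tissue was the L3-L6 spinal cord, taken from the side of the operation. JA rats underwent the sham operation and were given normal saline by mouth, and the other 3 samples came from injured rats given saline (SNI). PLM rats had the nerve injury and the middle dose of the drug pair for 21 days. The labels state paeoniflorin at 20.65 mg/mL, with liquiritin at 3.98, 3.99 and 3.100 mg/mL for PLM replicates 1, 2 and 3. The digits after the point count up with the replicate number, whereas the methods of the study give a single dose for the group, equal to the value of replicate 1, so the differences between replicates may be an entry error and are not used here. PLM and JA differ in both the injury and the drugs, and no sham group received the drugs, so the part of each in a difference cannot be told apart in this comparison. SNI levels are therefore given beside the PLM and JA levels, with the reservation that each comparison with SNI shares samples with this one.

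In the spared nerve injury model, branches of the sciatic nerve are ligated and cut while the sural branch is left intact, which gives lasting hypersensitivity of the hind paw. Lumbar dorsal horn neurons receive the input of these fibres, and astrocytes and microglia around them are known to react to the injury, astrocytes with more of the intermediate filament Gfap. Paeoniflorin is a glucoside of peony root and liquiritin is a flavonoid glycoside of licorice root.

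The authors deposited TPM, transcript levels corrected for gene length that add up to the same total in every sample, so read depth is not known and no counting error can be given. Of 34890 loci listed, 15349 averaged 1 TPM or more across the 6 samples and were tested, of which 13824 carried a gene name and 1520 were loci of the transcript assembly. At the edge of this filter, Slco2a1 lay just inside with a mean of 1 TPM and Ccr10 just outside with 0.998 TPM. Fold changes are differences of log2(TPM + 1), PLM minus JA, after each sample was centred on its median, and they understate the change of genes with low TPM. Each is given with its standard error from limma over 3 samples per group. The labels call the samples of a group biological replicates, and a p-value rests on the spread within these 3 and 3 samples only. For both the standard error and the p-value, limma draws the variance of each locus towards a trend over all loci tested.

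Several libraries stood apart before any comparison was made. JA replicate 3 held far more RNA of peripheral nerve and connective tissue than the other sham samples. Prx, a scaffold protein of Schwann cells, was at 13.9, 2.37 and 125 TPM in JA, 8.5, 73.6 and 27.4 TPM in SNI and 4.54, 15.1 and 54.6 TPM in PLM, and the matrix protein gene Dcn was at 33.9, 20.9 and 179 TPM in JA and 16.8, 33.7 and 59.01 TPM in PLM. JA replicate 3 and PLM replicate 3 were thus the highest of their groups in both genes. JA replicate 3 was also the sham sample lowest in astrocyte markers and JA replicate 1 was the sham sample highest in motor neuron genes, as described with those lists. The 13 protein genes of the mitochondrial genome took 29.1% ± 3.75 (SD, n = 3) of the TPM of sham samples, 24.6% ± 1.303 of those of SNI samples and 31.97% ± 0.768 of those of PLM samples. The PLM samples, from 31.3% to 32.8%, lay within the range of JA, from 25.3% to 32.8%. Neurons, astrocytes, oligodendrocytes and microglia were each represented by their defining markers in every sample. The correlation of log2(TPM + 1) over the loci tested (Pearson's r, across genes, which are not independent replicates) was 0.953 to 0.961 between JA samples, 0.960 to 0.962 between PLM samples and 0.951 to 0.962 between a JA and a PLM sample, so the groups did not separate on overall similarity.

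With the thresholds of the study, which are an unadjusted p-value under 0.05 together with a log2 fold change beyond 1 in either direction, 47 loci were lower in PLM than in JA, 0.306% of those tested, and 54 were higher, 0.352%. After Benjamini-Hochberg adjustment over all loci, limma kept 2 lower loci, 0.013% of those tested, and 0 higher loci, whereas at an unadjusted p-value under 0.05 with any fold change it gave 724 lower (4.72%) and 808 higher (5.26%). A gene named here at the unadjusted threshold is therefore, unless its adjusted p-value is given as lower, a difference that did not hold after adjustment over all loci. Of the 101 loci past both thresholds, 65 carried a gene name. In 35 of the 47 lower and 28 of the 54 higher loci the PLM and JA samples did not overlap, against 6.93% and 9.28% of all loci tested in those directions. The called loci were chosen on these same samples, so their larger share without overlap follows from that choice and is no separate evidence. Most of the called genes named below were also chosen for having no overlap between PLM and JA, so that separation is not a result about them. Without JA replicate 3 the counts were 98 lower and 82 higher. All PLM samples were listed at 0 for 10 of the lower loci, and all JA samples for 15 of the higher ones. The balance of the directions depended on the settings. Lower loci were 46.5% of the called loci with median centring, 56.3% with quantile normalization and 70.1% without centring, which moved the median of all loci from 0.028 to -0.096. They were 57.4% with at least 1 TPM in every sample, 53.8% with all 9 samples in the fit and 41.7% to 55.7% when each sample was left out in turn.

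**Figure D1:**
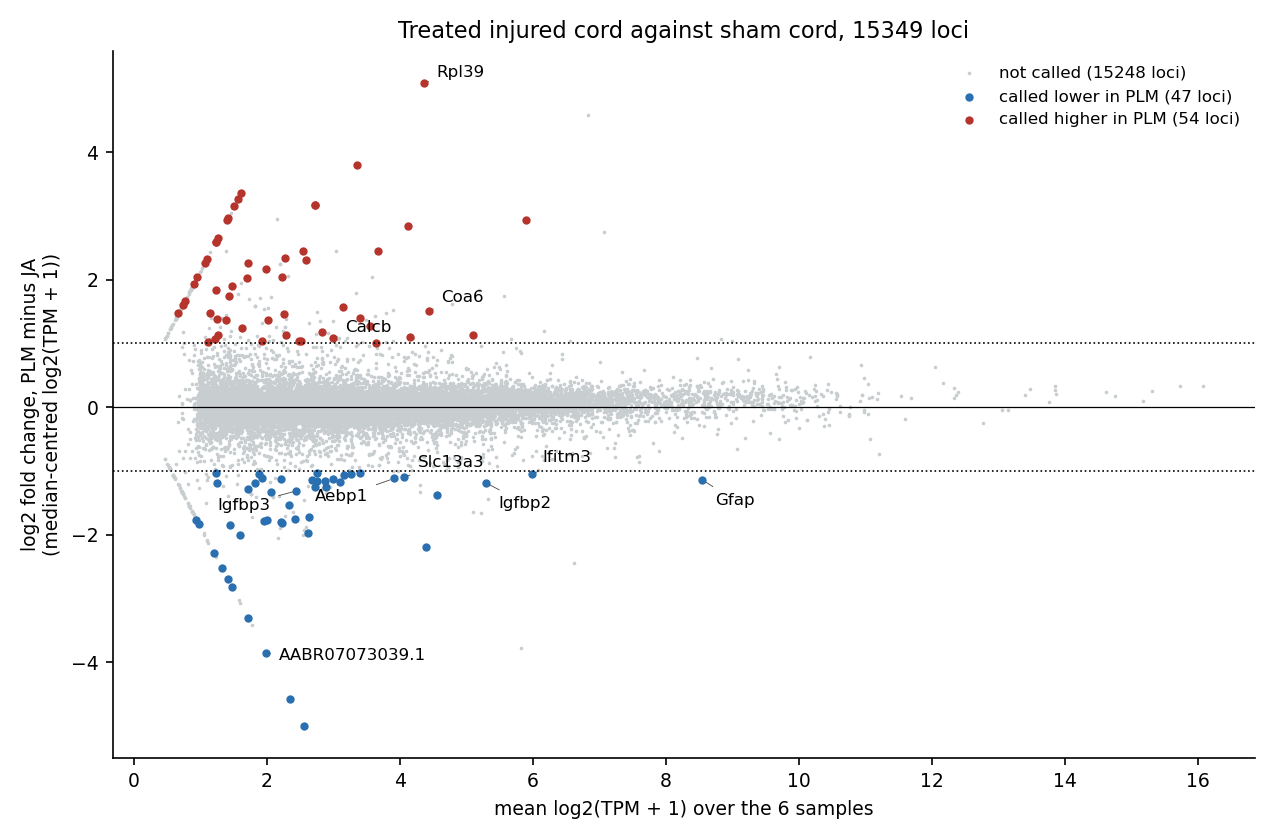
Each point is 1 of the 15349 loci, with its mean log2(TPM + 1) over the 6 samples on the x axis and the log2 fold change of PLM minus JA on the y axis; dotted lines mark a fold change of 1 on the log2 scale in each direction. The 47 lower (blue) and 54 higher (red) called loci lie mostly at low expression, while Gfap, Ifitm3 and Igfbp2 are called lower at high expression.

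Aebp1 was the named gene that stood furthest from sham relative to its spread. It encodes a collagen-binding matrix protein of connective tissue that also exists as a transcriptional repressor. Aebp1 (ENSRNOG00000013720) was at 24.6, 22.1 and 20.2 TPM in JA replicates 1 to 3 and at 8.26, 9.43 and 8.77 TPM in the PLM replicates. Every PLM sample lay below every JA sample by a wide margin, while the SNI samples, at 19.2, 24.8 and 22.6 TPM, covered the same range as sham. The mean was 22.3 ± 2.16 TPM in JA and 8.82 ± 0.587 TPM in PLM (SD, n = 3), 2.53-fold lower, with a log2 fold change of -1.12 ± 0.072 and an adjusted p of 0.021 by limma. When each sample was left out in turn the fold change stayed between -1.16 and -1.09 and the adjusted p between 0.032 and 0.16. The other locus past the adjusted threshold, AABR07073039.1 (ENSRNOG00000028747), has only a clone-based name. It was at 12.1, 19.6 and 13.8 TPM in JA and 2.53, 13.3 and 5.25 TPM in SNI and was listed at 0 in all PLM samples, with an adjusted p of 0.0099 by limma. With each sample left out in turn, the adjusted p of this locus lay between 0.0057 and 0.056.

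Astrocyte markers had the lowest median fold change of the 34 lists. Astrocytes clear glutamate and potassium, couple to one another through gap junctions and, when reactive, enlarge their Gfap filaments. All 20 markers tested had a fold change below 0, against 43.7% of all loci, with a median of -0.77 beside 0.028 for all loci. Of these 20, 9 (45%) were lower at an unadjusted p under 0.05, beside 4.72% of all loci, and 0 were higher. In bulk tissue, fewer astrocytes and less astrocyte RNA per cell cannot be told apart. Gfap alone passed both thresholds. Gfap (ENSRNOG00000002919) was at 741, 707 and 374 TPM in JA, 586, 617 and 561 TPM in SNI and 259, 248 and 216 TPM in PLM. All PLM samples were lower than all JA and SNI samples, and the lowest sham sample, JA replicate 3, was closer to PLM than to the other sham samples. The group means were 607 ± 202 TPM in sham and 241 ± 22.1 TPM in the treated cord (SD, n = 3). On the log2 scale Gfap fell by 1.14 with a standard error of 0.24, and the adjusted p from limma was 0.44. The fold change was -0.998, at the edge of the fold threshold, without JA replicate 2.

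Other astrocyte genes were lower by smaller amounts. Aqp4, the water channel of astrocyte endfeet, was at 305, 327 and 196 TPM in JA and 149.9, 121 and 139 TPM in PLM, a log2 fold change of -0.85 ± 0.19 (unadjusted p = 0.0035, adjusted p = 0.45, limma). Aldh1l1, a folate enzyme used as a pan-astrocyte marker, was at 22.6, 19 and 11.8 TPM in JA and 8.93, 9.36 and 7.27 TPM in PLM, with a fold change of -0.82 ± 0.21. In both genes all PLM samples were below all JA samples, and SNI, with fold changes over sham of 0.093 and 0.059, lay near sham. The glutamate transporter Slc1a3 was lower by the same test with a fold change of -0.59 ± 0.17, and so were the calcium-binding protein S100b (-0.50 ± 0.13), the receptor Ntsr2 (-0.99 ± 0.30), the bicarbonate cotransporter Slc4a4 (-0.76 ± 0.26), the membrane protein Mlc1 (-0.83 ± 0.30) and the gap junction subunit Gja1 (-0.72 ± 0.29). The second glutamate transporter, Slc1a2, did not pass. It was at 42.7, 24.6 and 10.2 TPM in JA and 12.4, 9.54 and 7.68 TPM in PLM, so that JA replicate 3 fell within the PLM range, and its fold change was -0.998 ± 0.45. The mean level of the list, on the centred log2 scale, was 2.80 to 3.82 in JA, 3.57 to 3.78 in SNI and 2.45 to 2.87 in PLM. The lowest sham sample therefore overlapped the treated samples, and the SNI samples lay with the upper part of sham.

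The number of astrocyte markers past the unadjusted threshold depended on single sham samples. It was 19 of 20 without JA replicate 3, with a median of -1.07, and 6 without JA replicate 1, with a median of -0.48, and the lowest count was 5, without JA replicate 2 or without PLM replicate 3, beside 6 without PLM replicate 2. The median stayed below 0 throughout. 

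**Figure D2:**
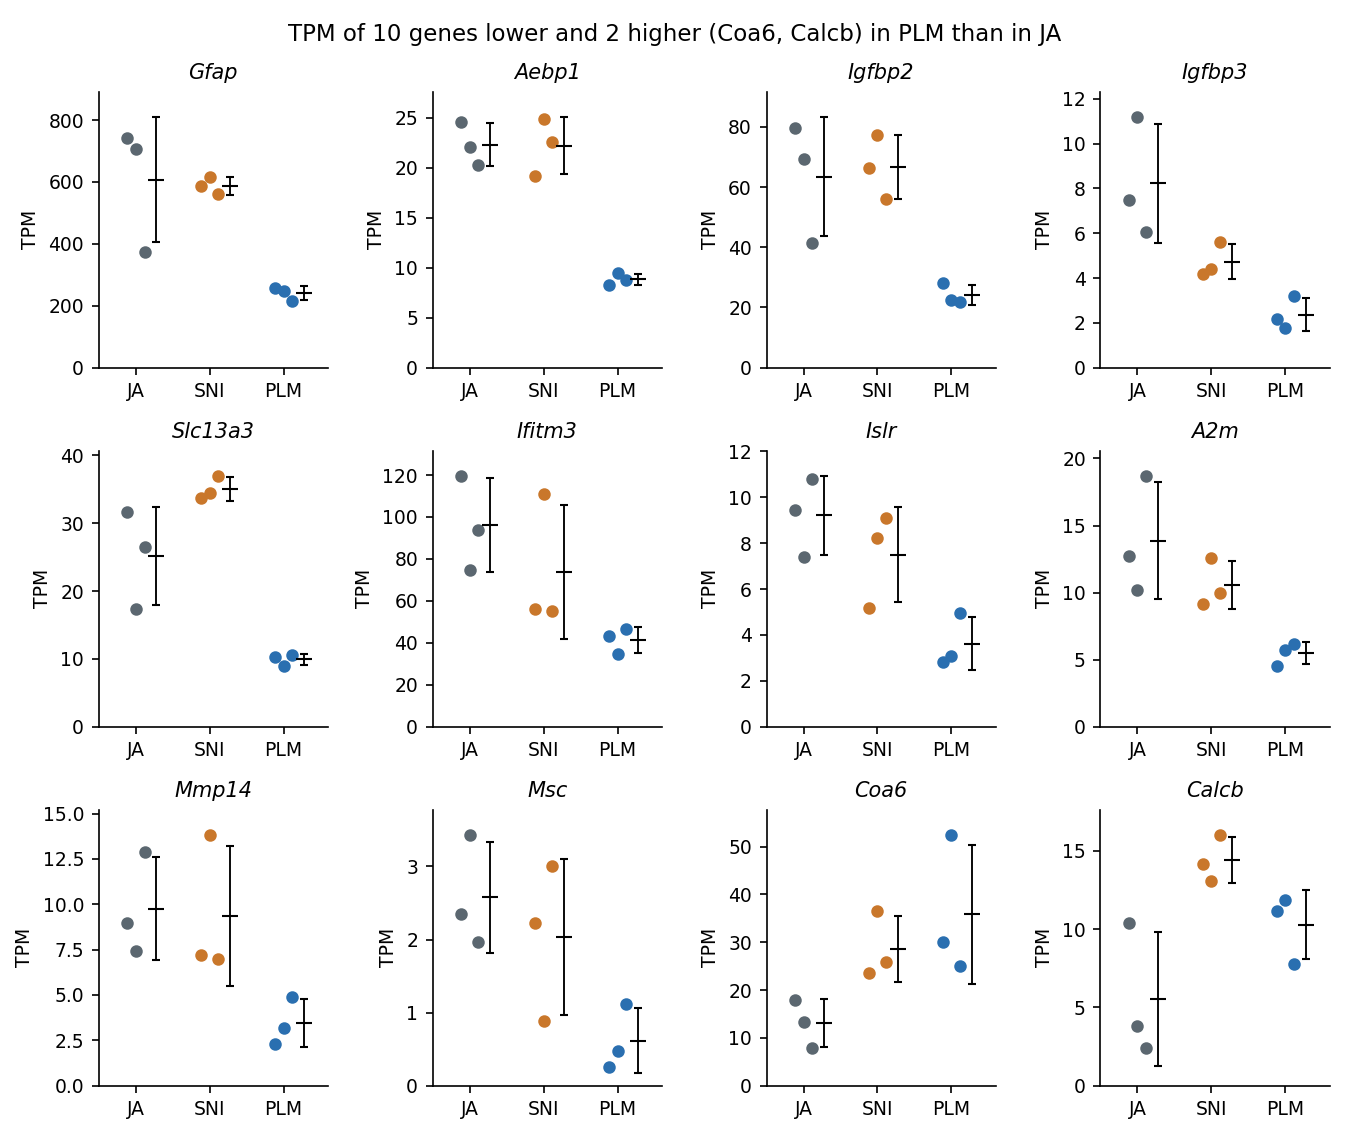
TPM (y axis) of 12 genes in the 3 samples of each group, with the mean and SD beside the points; Coa6 and Calcb are higher and the other 10 genes lower in PLM than in JA. In the 10 lower genes no PLM sample reaches a JA sample, as the rule for naming them required. The SNI samples lie within the JA range or on both sides of its edges in 8 of them. The SNI samples of Igfbp3 lie below and those of Slc13a3 above all JA samples.

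Slc13a3 (ENSRNOG00000019118) encodes a sodium-dependent dicarboxylate carrier for citric acid cycle intermediates and N-acetylaspartate. It was at 31.6, 17.3 and 26.5 TPM in JA, 33.7, 34.5 and 36.96 TPM in SNI and 10.3, 8.96 and 10.5 TPM in PLM. All SNI samples were above all sham samples and all PLM samples below them, with a log2 fold change of -1.10 ± 0.20 for PLM against JA and 0.38 for SNI against JA (adjusted p = 0.36 for the former, limma). Plpp3, a phosphatase of lysophosphatidic acid and other lipid phosphates, was at 46.4, 33.6 and 29.1 TPM in JA and 17.98, 17.05 and 20.2 TPM in PLM, without overlap, and its fold change of -0.80 ± 0.14 had an unadjusted p of 0.00093 in limma. Of the 3 calcium signaling genes that the study names and that were tested, the endothelin receptor Ednrb (-0.64 ± 0.23) and the adenosine receptor Adora2b (-0.57 ± 0.22) were lower at an unadjusted p under 0.05, while the precursor of angiotensin, Agt, was at 403, 290.3 and 146 TPM in JA and 165, 137 and 114 TPM in PLM and did not pass. The number of lower members was 0 without JA replicate 1, JA replicate 2, PLM replicate 2 or PLM replicate 3, 1 without PLM replicate 1 and 3 without JA replicate 3. The study chose these genes on samples of this series, so they are not independent evidence of a direction. The histamine receptor Hrh1 and the substance P receptor Tacr1 were under the filter. Hrh1 was at 1.06, 0.51 and 0.28 TPM in JA and 0.35, 0.31 and 0.28 TPM in PLM, and Tacr1 at 1.67, 0.99 and 0.49 TPM and 0.34, 0.42 and 0.43 TPM. Of other lipid enzymes fixed by name, Agpat4 (-0.081 ± 0.067), Lpcat4 (0.21 ± 0.093) and Etnppl (-0.36 ± 0.22) did not pass.

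Igfbp3 and Igfbp2, secreted proteins that bind insulin-like growth factors, were both called. They are described with the ligand Igf2, which is in the meningeal list, and other genes of this system were not examined as a list. Igfbp3 (ENSRNOG00000061910) was at 7.47, 11.2 and 6.04 TPM in JA, 4.18, 4.39 and 5.61 TPM in SNI and 2.15, 1.77 and 3.18 TPM in PLM. The groups lay in 3 separate steps, sham above SNI above PLM, and the fold change of PLM was -1.31 ± 0.23 (adjusted p = 0.34, limma) beside -0.78 for SNI. Igfbp2 (ENSRNOG00000016957) was at 79.6, 69.4 and 41.4 TPM in JA, 66.3, 77.3 and 56.03 TPM in SNI and 28.03, 22.5 and 21.8 TPM in PLM. Here SNI overlapped sham and PLM alone lay apart, 2.63-fold lower by the means, with a log2 fold change of -1.19 ± 0.23. Igf2 itself was at 53.3, 55.01 and 33.7 TPM in JA, 34.2, 41.4 and 31.4 TPM in SNI and 21.7, 19.4 and 24.4 TPM in PLM, a fold change of -0.93 ± 0.17 for PLM with no overlap with JA and an unadjusted p of 0.0014 in limma.

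Several matrix and connective tissue genes were lower in PLM than in sham. Of 24 collagens and matrix genes tested, 23 had a fold change below 0, 7 were lower at an unadjusted p under 0.05 and 0 were higher, with a median of -0.53. The lower members were 29.2% of the list, beside 4.72% of all loci, and 43.7% of all loci had a fold change below 0. Mmp14, a membrane metalloproteinase that cleaves collagen and activates other metalloproteinases, was called. It (ENSRNOG00000010947) was at 8.97, 7.44 and 12.9 TPM in JA, 7.23, 13.8 and 7 TPM in SNI and 2.28, 3.17 and 4.9 TPM in PLM, -1.16 ± 0.27 as a log2 fold change (adjusted p = 0.45, limma). The SNI samples lay on both sides of the sham range, and no PLM sample reached it. The 6 others that passed were the proteoglycan Bgn (-0.63 ± 0.13), the fibril-associated collagen Col12a1 (-0.72 ± 0.18), the collagen-binding glycoprotein Sparc (-0.49 ± 0.13), the beaded-filament collagen chains Col6a1 (-0.55 ± 0.23) and Col6a2 (-0.72 ± 0.24) and the glycoprotein Tnc (-0.59 ± 0.22). Sparc was the most abundant of them, at 676, 736 and 762 TPM in JA and 466, 416 and 543 TPM in PLM, with SNI at 724, 925 and 763 TPM. The main fibrillar collagens spread too widely to pass. Col1a1 was at 18.2, 18.1 and 50.3 TPM in JA and 7.81, 10.1 and 18.3 TPM in PLM, and Col3a1 at 19.99, 28.7 and 55.1 TPM and 11.02, 15.1 and 19.4 TPM. The highest PLM sample met the sham range for Col1a1 and lay just under it for Col3a1.

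Of 13 meningeal and fibroblast markers tested, 12 were below 0 with a median of -0.51, and 3 of them, Igf2, the GABA transporter Slc6a13 of the leptomeninges (-0.51 ± 0.12) and the matrix protein Thbs2 (-0.47 ± 0.17), passed the unadjusted threshold. Crabp2, a retinoic acid binding protein that is also a meningeal marker, went the other way with 0.51 ± 0.16. These were 23.1% lower and 7.69% higher, beside 4.72% and 5.26% of all loci. The summed TPM of this list was 320 to 624 in JA, 217 to 455 in SNI and 189 to 333 in PLM, so it ran together with the matrix genes, and its part in their lower level was not tested. JA replicate 3 carried the highest sum. Without it the matrix list had 6 members past the threshold and a median of -0.31. Without JA replicate 1 it had 13 and a median of -0.72, and without PLM replicate 1 it had 4 and a median of -0.41. Without JA replicate 3 the meningeal list had 2 lower members and a median of -0.37, without PLM replicate 1 it also had 2, and without JA replicate 1 it had 6. Further called genes of this kind were Islr, a secreted leucine-rich repeat protein of mesenchymal cells, and Msc, a basic helix-loop-helix repressor. Islr (ENSRNOG00000048924) was at 9.43, 7.39 and 10.8 TPM in JA, 5.16, 8.24 and 9.08 TPM in SNI and 2.84, 3.08 and 4.94 TPM in PLM (-1.03 ± 0.20), and Msc (ENSRNOG00000007540) at 2.35, 3.43 and 1.96 TPM in JA, 2.22, 0.89 and 3 TPM in SNI and 0.26, 0.47 and 1.12 TPM in PLM (-1.04 ± 0.24). In both genes PLM lay below all sham samples and SNI ran from the sham range to below it. A2m, a broad protease inhibitor of plasma and glia (ENSRNOG00000028896), was at 12.8, 10.2 and 18.7 TPM in JA, 9.12, 12.6 and 9.97 TPM in SNI and 4.54, 5.74 and 6.13 TPM in PLM, a fold change of -1.04 ± 0.23.

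Some interferon-stimulated genes were lower in the treated cord than in sham. Interferons signal through transcription factors of the STAT and IRF families to promoters that carry an interferon-stimulated response element, and many of the products restrict viruses. Of 22 such genes tested, 19 had a fold change below 0, 8 were lower at an unadjusted p under 0.05 and 0 were higher, with a median of -0.26. The lower members were 36.4% of the list, beside 4.72% of all loci. Ifitm3, a membrane protein that blocks viral entry and is also abundant in meninges and vessels, was the called member. Ifitm3 (ENSRNOG00000015078) was at 119.5, 74.8 and 93.96 TPM in JA, 56.04, 111 and 55 TPM in SNI and 43, 34.6 and 46.7 TPM in PLM. No PLM sample reached a JA or SNI sample, and the SNI samples split between the sham range and a lower level. The log2 fold change was -1.06 ± 0.18 with an adjusted p of 0.32 by limma. Bst2, which tethers budding virus to the membrane, had the smallest p of the list. It was at 56.6, 53.7 and 51.9 TPM in JA, 43.02, 52.6 and 56.6 TPM in SNI and 33.8, 28.8 and 30.9 TPM in PLM, a fold change of -0.65 ± 0.093 (unadjusted p = 0.00032, limma), with sham and treated samples well apart. Other members past the threshold were the RNA sensor Oas1a (-0.70 ± 0.22), the GTPases Irgm (-0.44 ± 0.12) and Igtp (-0.39 ± 0.099), the ubiquitin-like protease Usp18 (-0.45 ± 0.18) and the signal transducer Stat2 (-0.22 ± 0.090). Ifit3 did not share this direction. It was at 4.71, 3.9 and 8.54 TPM in JA and 14.7, 5.82 and 8.92 TPM in PLM, and did not pass. The mean level of the list in PLM replicate 1 lay within the sham range and the other PLM samples lay below it. The number of lower members was 4 without JA replicate 1 and 5 without PLM replicate 2 or PLM replicate 3, and stayed from 6 to 10 under every other alternative.

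Promoters of interferon-stimulated genes that were lower in PLM are shown because they carry the element on which interferon signaling acts. The sequences are the 150 bases before the start site, from RefSeq on GRCr8, written 5′ to 3′ along the gene, and capitals mark GAAA, any 2 bases and GAAA again, or the same run read on the opposite strand, TTTC, any 2 bases and TTTC. Bst2 lies at chr16:18254968-18255117 on the minus strand, Ifitm3 at chr1:205541759-205541908 on the minus strand, Irgm at chr10:33742579-33742728 on the minus strand and Oas1a at chr12:41330316-41330465 on the plus strand.
Bst2: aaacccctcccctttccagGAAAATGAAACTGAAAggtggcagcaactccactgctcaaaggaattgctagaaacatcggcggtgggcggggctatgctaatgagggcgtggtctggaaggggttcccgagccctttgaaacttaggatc
Ifitm3: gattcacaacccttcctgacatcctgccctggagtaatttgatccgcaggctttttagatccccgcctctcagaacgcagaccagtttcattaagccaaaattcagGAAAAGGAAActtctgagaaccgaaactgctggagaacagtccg
Irgm: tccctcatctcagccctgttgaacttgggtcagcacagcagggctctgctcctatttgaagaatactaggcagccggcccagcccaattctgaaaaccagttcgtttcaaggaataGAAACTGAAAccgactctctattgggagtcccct
Oas1a: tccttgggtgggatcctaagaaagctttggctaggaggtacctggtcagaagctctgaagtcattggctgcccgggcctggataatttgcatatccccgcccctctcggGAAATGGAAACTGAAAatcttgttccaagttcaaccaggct
The motif began 44 bases before the start in Ifitm3, 34 in Irgm, 41 and 35 in Oas1a and 131 and 125 in Bst2, where the matches overlap in the last pair of genes. On either strand of the 250 bases before the start, it was present in 3.41% of all 33469 promoters of the table. Of the 22 list members, 17 had a promoter there and 14 of these held the motif. Among members lower at an unadjusted p under 0.05 it was in 5 of 6 promoters, and among the rest in 9 of 11. These counts do not separate the members that were lower from those that did not pass.

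Complement and antigen presentation genes had a few members lower and 0 higher. Of 18 complement genes tested, 12 were below 0 and 3 passed (16.7%, beside 4.72% lower of all loci), with a median of -0.087. The initiating protease C1r was at 12.5, 10.8 and 12.9 TPM in JA, 9.68, 13.2 and 10.7 TPM in SNI and 5.43, 5.93 and 6.94 TPM in PLM, without overlap between PLM and JA, and its fold change was -0.76 ± 0.11 (unadjusted p = 0.00031, limma). Its inhibitor Serping1 (-0.91 ± 0.28) and C4a (-0.45 ± 0.17) were the other members that passed. Of 18 genes of the major histocompatibility complex and antigen presentation, 14 were below 0 with a median of -0.23. The 2 lower members (11.1%, beside 4.72% of all loci) were RT1-DMa (-0.42 ± 0.17) and the immunoproteasome subunit Psmb9 (-0.28 ± 0.12). Their count was 0 without JA replicate 1, 1 without JA replicate 3 or PLM replicate 3 and 6 without centring. Cytokines and chemokines gave 1 lower, the receptor Tnfrsf1a (-0.35 ± 0.12), and 1 higher, the inhibitor Nfkbia of NF-kappaB (0.63 ± 0.21), of 18 tested, each 5.56% of the list and near the shares of all loci (4.72% lower and 5.26% higher).

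Some circadian clock genes were lower and some higher than in sham, none of them past the adjusted threshold. The activators Arntl (now Bmal1), Clock and Npas2 drive the repressors of the Per, Cry and Nr1d families and the output regulator Dbp through E-boxes, and Nr1d1 and Nr1d2 repress Arntl and Npas2 through ROR elements. Of 17 clock genes tested, 2 were lower and 4 were higher at an unadjusted p under 0.05. These were 11.8% and 23.5% of the list, beside 4.72% and 5.26% of all loci. Arntl was at 11.3, 9.33 and 8.85 TPM in JA, 11.2, 10.9 and 9.22 TPM in SNI and 5.13, 6.26 and 5.42 TPM in PLM. The SNI samples lay within the sham range and every PLM sample below it, a fold change of -0.59 ± 0.094 (unadjusted p = 0.00064, adjusted p = 0.32, limma). Npas2 was at 5.82, 3.79 and 2.72 TPM in JA and 1.98, 2.74 and 1.98 TPM in PLM, with a slight overlap between PLM and JA (-0.50 ± 0.21). Nr1d2 was at 11.01, 10.1 and 11.1 TPM in JA, 13.4, 13.97 and 12.1 TPM in SNI and 14.9, 15.2 and 18.5 TPM in PLM. All PLM samples were above all others, with a fold change of 0.67 ± 0.095 (unadjusted p = 0.00031, limma). Nr1d1 was at 17.2, 11.4 and 10.4 TPM in JA, 21.4, 17.8 and 15.1 TPM in SNI and 20.8, 19.9 and 20.6 TPM in PLM, a fold change of 0.77 ± 0.14. Its SNI samples ranged from the level of sham to above PLM. Dbp was at 40.5, 45.5 and 32.2 TPM in JA, 49.6, 42.6 and 43.99 TPM in SNI and 58.6, 55.98 and 57.02 TPM in PLM, with PLM above all JA and SNI samples and a fold change of 0.67 ± 0.12. The repressor Ciart was at 4.29, 5.49 and 4.19 TPM in JA and 6.3, 5.05 and 6.45 TPM in PLM, a fold change of 0.42 ± 0.14, and its TPM ranges overlapped although the centred values did not.

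The 11 other clock genes did not pass, among them Per1 (-0.026), Per2 (0.22), Per3 (-0.086), Cry1 (-0.26), Cry2 (-0.0015) and Clock (0.023). The values of Per1, Cry2 and Clock were smaller than the shift of the median of all loci without centring. Under quantile normalization the same counts of 2 lower and 4 higher were found, and without centring there were 3 lower and 3 higher. When each sample was left out in turn, 1 to 3 were lower and 3 to 4 higher. Arntl, Nr1d2, Dbp and Nr1d1 passed in each of these fits, whereas Npas2 had an unadjusted p of up to 0.14 in limma with a fold change of -0.31 without JA replicate 1, and Ciart one of up to 0.086 with a fold change of 0.33 without JA replicate 1. The hour at which each animal was killed is not given in the labels, so the part of collection time in these differences was not tested.

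**Figure D3:**
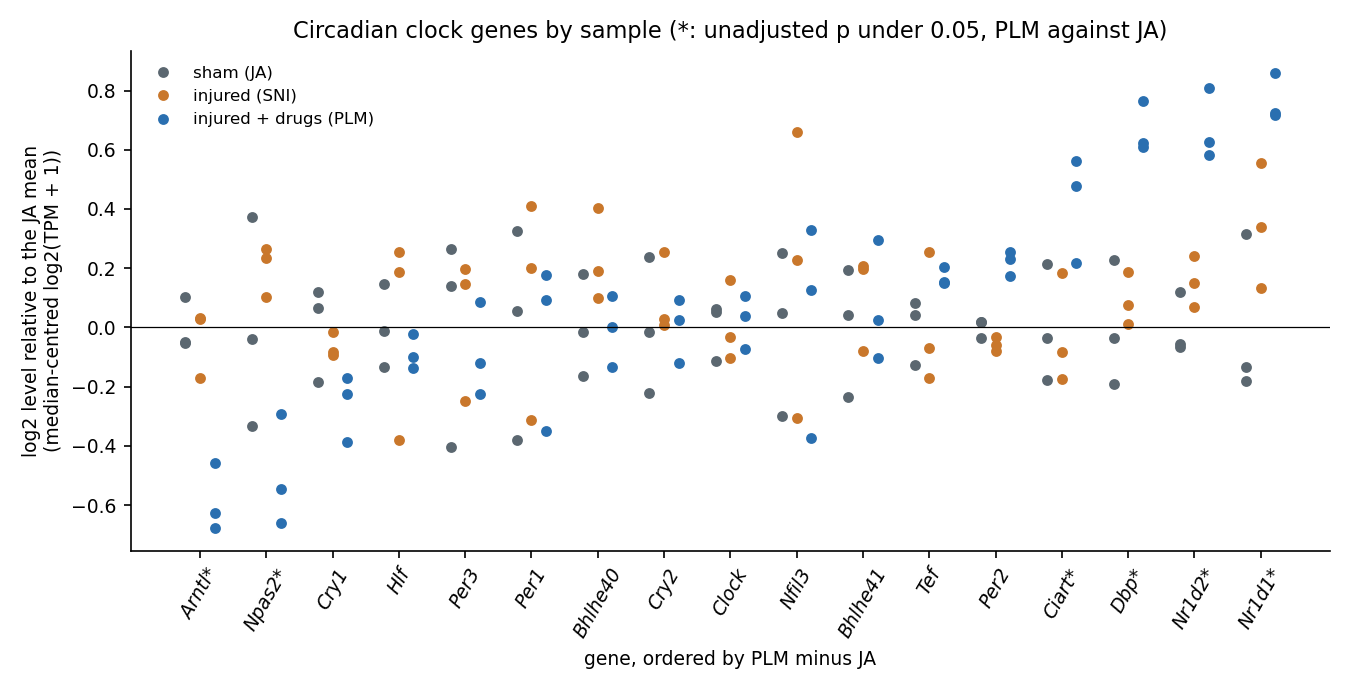
Level of each of the 17 clock genes in each sample (points) relative to the mean of the JA samples, on the median-centred log2(TPM + 1) scale; genes are ordered by the difference of PLM and JA, and an asterisk marks an unadjusted p under 0.05. Arntl and Npas2 lie lowest and Ciart, Dbp, Nr1d2 and Nr1d1 highest in PLM, with the SNI points of Arntl near 0.

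The promoters of Bmal1 and Ciart are shown because the genes went in opposite directions and each carries 1 of the 2 clock elements searched. They are again the 150 bases before the start from RefSeq on GRCr8, at chr1:176766178-176766327 on the plus strand for Bmal1 and chr2:186112247-186112396 on the minus strand for Ciart. Capitals mark AGGTCA or its reverse complement TGACCT, the core of the ROR element, in Bmal1 and the E-box CACGTG in Ciart.
Bmal1: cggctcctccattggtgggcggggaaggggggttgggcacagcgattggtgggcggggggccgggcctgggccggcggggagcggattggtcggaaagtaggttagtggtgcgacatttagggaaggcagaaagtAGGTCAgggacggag
Ciart: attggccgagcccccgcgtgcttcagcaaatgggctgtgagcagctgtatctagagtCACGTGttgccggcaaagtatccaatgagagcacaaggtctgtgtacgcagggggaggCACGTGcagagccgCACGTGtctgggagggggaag
AGGTCA began 15 bases before the start of Bmal1, and the E-boxes 93, 35 and 21 bases before the start of Ciart. In the 250 bases before the start, AGGTCA was found on either strand in 14.1% of all promoters and CACGTG in 5.59%. Of the 15 clock genes with a promoter in the table, 2 held AGGTCA (Bmal1 and Nr1d2) and 5 held the E-box (Nr1d1, Ciart, Tef, Bhlhe41 and Bhlhe40). The pair with AGGTCA went in opposite directions, Bmal1 lower and Nr1d2 higher, and Dbp, also higher, held neither element. Of the 5 with the E-box only Nr1d1 and Ciart were higher at an unadjusted p under 0.05.

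A few neuronal genes were higher in the treated cord than in sham. All 20 neuron markers had a fold change above 0 with a median of 0.32, and 3 were higher at an unadjusted p under 0.05. These 3 were 15% of the list, beside 5.26% of all loci. By the mean level of the list, JA replicate 1 (3.99) lay above PLM replicate 3 (3.97) and SNI replicate 2 (3.88), so the groups overlapped. The neurofilament gene Nefm was at 1534, 674 and 725 TPM in JA, 1864, 1736 and 2134 TPM in SNI and 1405, 1614 and 1316 TPM in PLM, with fold changes over sham of 0.79 in PLM and 0.95 in SNI. JA replicate 1 lay within the PLM range, and the other sham samples lay far below it. Gad1, the enzyme that makes GABA, was at 40.6, 36.4 and 38.8 TPM in JA and 42.05, 44.3 and 43.5 TPM in PLM, a small difference of 0.29 ± 0.070 without overlap, and the glycine transporter Slc6a5 differed by 0.26 ± 0.10. The glycine receptor subunit Glrb differed by 0.43 ± 0.13 in PLM and 0.44 in SNI. None of the 3 neuron markers passed without centring, where the count was 0 and the median 0.20, so these calls depended on the scaling. Among 22 genes of GABA and glycine inhibition, the median was -0.023, and Gad1, Slc6a5 and Glrb were the 3 that passed (13.6%, beside 5.26% of all loci). The number of higher members was 6 without JA replicate 1 and 2 to 3 without each other sample, and 4 members were lower without JA replicate 3.

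Motor neuron genes had a median of 0.59 in PLM and 0.75 in SNI over sham. All 9 tested were above 0 and 2 passed, the choline transporter Slc5a7 and the nuclear receptor Esrrb. They were 22.2% of the list, beside 5.26% of all loci. Slc5a7 was at 6.96, 2.63 and 1.79 TPM in JA, 9.46, 8.69 and 10.4 TPM in SNI and 6.19, 6.84 and 5.28 TPM in PLM, a fold change of 0.84 ± 0.34. JA replicate 1 lay above all PLM samples, and the other sham samples lay far below. Without JA replicate 1, 8 motor neuron genes and 12 neuron markers passed. Without JA replicate 2 the numbers were 0 and 1, without JA replicate 3 they were 0 and 5, and without PLM replicates 1, 2 and 3 in turn they were 0 and 1, 0 and 1, and 1 and 2. No motor neuron gene passed without centring or with quantile normalization, with medians of 0.46 and 0.55. The median was 0.34 without JA replicate 3 and 0.93 without JA replicate 1. Motor neurons lie in the ventral horn, and whether the share of ventral horn in each tissue piece differed was not tested.

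Among 22 dorsal horn peptides and receptors tested, 1 was higher (4.55%), near the 5.26% of all loci. Calcb, the beta form of the calcitonin gene-related peptide of nociceptors and motor neurons (ENSRNOG00000011074), was at 10.4, 3.84 and 2.38 TPM in JA, 14.2, 13.1 and 16.01 TPM in SNI and 11.2, 11.9 and 7.77 TPM in PLM. SNI lay above all sham samples, PLM overlapped sham through JA replicate 1, and the fold changes over sham were 1.08 ± 0.41 for PLM and 1.31 for SNI (adjusted p = 0.49 for PLM, limma). Leaving out 1 sample at a time gave fold changes from 0.75, without JA replicate 3, to 1.54, without JA replicate 1, and only the fits without JA replicate 1 or PLM replicate 3 kept the call. Ion channels of pain signaling gave 0 lower and 0 higher of 23 at an unadjusted p under 0.05, with a median of 0.077, and 4 higher without JA replicate 1. Glutamate receptor genes gave 1 lower of 21 (4.76%), near the 4.72% of all loci, the subunit Grin2c (-0.64 ± 0.20), which astrocytes and cerebellar granule cells use. Of 24 axotomy and regeneration genes, 3 were lower (12.5%, beside 4.72% of all loci) and 0 were higher. Among the lower were the hyaluronan receptor Cd44 (-0.49 ± 0.19) and the RNA-binding Arid5a (-0.28 ± 0.11). Only 1 member was lower without JA replicate 1, PLM replicate 1 or PLM replicate 2.

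**Figure D4:**
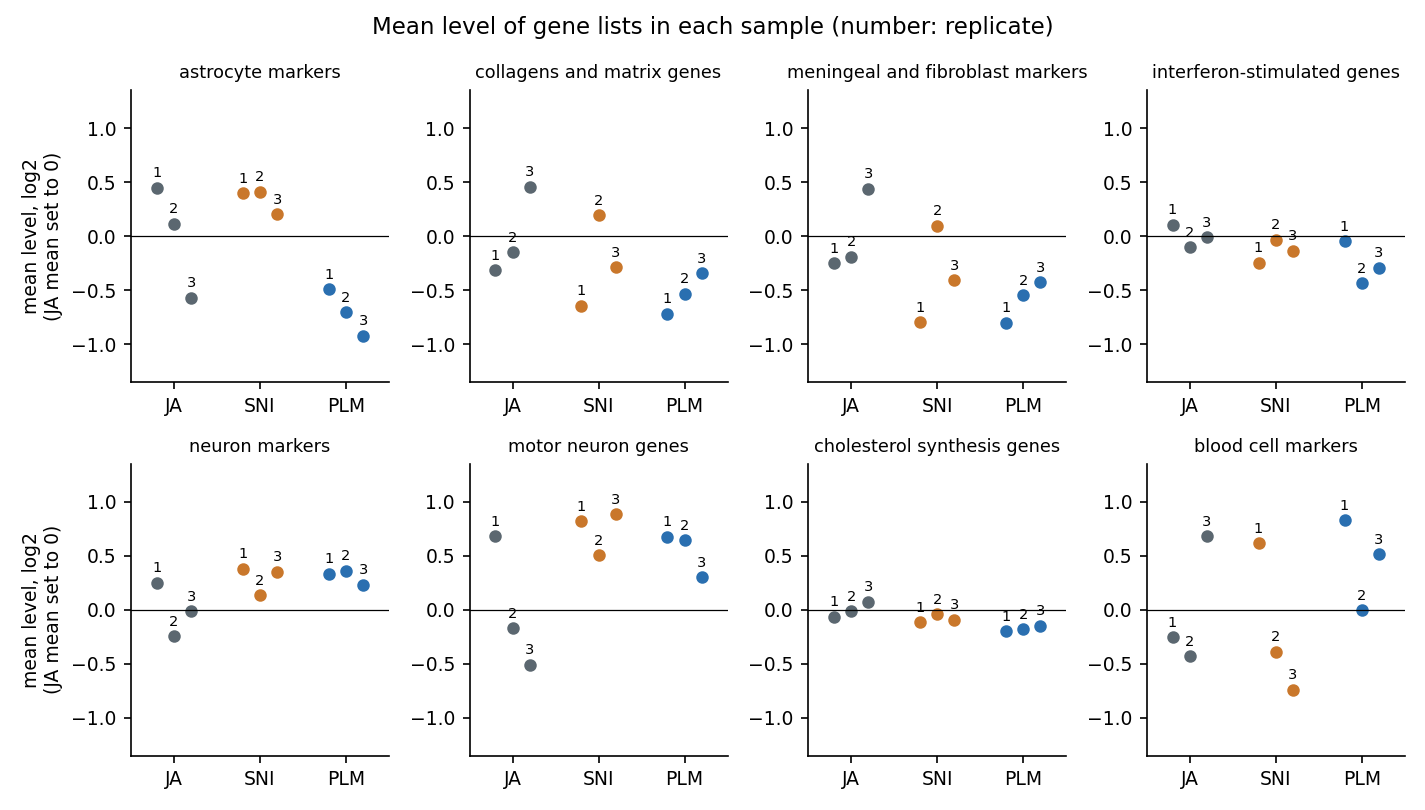
Mean level of the members of 8 gene lists in each sample, on the median-centred log2(TPM + 1) scale with the mean of the JA samples set to 0; the number at each point is the replicate. In PLM the astrocyte, matrix, meningeal and cholesterol lists lie near or below the lowest sham sample, motor neuron genes lie high in JA replicate 1, SNI and PLM, and JA replicate 3 lies low for astrocyte and high for matrix and meningeal genes.

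Some sterol synthesis genes were lower by small amounts. Of 22 cholesterol synthesis genes tested, 19 had a fold change below 0, 7 were lower at an unadjusted p under 0.05 and 0 higher, with a median of -0.17. The lower members were 31.8% of the list, beside 4.72% of all loci. The lower genes included the condensing enzymes Acat2 (-0.32 ± 0.080) and Hmgcs1 (-0.31 ± 0.13), the mevalonate enzymes Mvk (-0.24 ± 0.095) and Mvd (-0.20 ± 0.077) and the sterol enzymes Cyp51 (-0.28 ± 0.093) and Dhcr7 (-0.20 ± 0.082). Acat2, which joins acetyl groups at the head of the pathway, was at 105, 84.4 and 89.96 TPM in JA, 102, 109 and 93.4 TPM in SNI and 62.6, 68 and 73.1 TPM in PLM. All PLM samples were below all others and SNI lay within or above the sham range. The count of 7 was not stable. It was 14 without centring, 4 with TPM rescaled without mitochondrial genes, 4 with a pseudocount of 0.1, 4 without JA replicate 2, 3 without JA replicate 3 or PLM replicate 1, and 2 without PLM replicate 2.

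Of 42 phospholipid and sphingolipid enzymes, 4 (9.52%) were lower and 2 (4.76%) higher, beside 4.72% and 5.26% of all loci. Lower were Plpp3, the lipoprotein-associated phospholipase Pla2g7 (-0.76 ± 0.30), the phosphatidylethanolamine enzyme Pcyt2 (-0.23 ± 0.068) and Agpat1 (-0.17 ± 0.069). Higher were the cytosolic phospholipase Pla2g4a (0.52 ± 0.19), which releases arachidonic acid, and the glucosylceramide synthase Ugcg (0.30 ± 0.088). The lower count was 10 without JA replicate 3, 2 without PLM replicate 3 and 13 without centring. Of 20 oxidative stress genes, 6 (30%) were lower, beside 4.72% of all loci, and 0 were higher. They were the glutathione transferase Gsta1 (-0.72 ± 0.23), the peroxiredoxin Prdx6 (-0.56 ± 0.21), which is abundant in astrocytes, the metallothionein Mt2A (-0.39 ± 0.13), the cystine carrier Slc7a11 (-0.36 ± 0.14), the quinone reductase Nqo1 (-0.26 ± 0.090) and catalase, Cat (-0.25 ± 0.071). Catalase was at 54.4, 49.97 and 50.9 TPM in JA and 38.8, 37.5 and 43.1 TPM in PLM, a small difference with little spread, and every PLM sample lay below sham. The count of 6 fell to 1 without JA replicate 1, PLM replicate 2 or PLM replicate 3, and to 3 without JA replicate 2 or PLM replicate 1.

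Of the called loci 33 with a name were higher and 32 lower, and without placeholder symbols (such as those that begin with LOC, RGD or AABR) 11 were higher and 19 lower. Coa6, an assembly factor of cytochrome c oxidase (ENSRNOG00000052701), was at 17.95, 13.2 and 7.93 TPM in JA, 23.6, 36.5 and 25.8 TPM in SNI and 30.05, 52.4 and 25.03 TPM in PLM. Both injured groups lay above all sham samples, with a fold change of 1.51 ± 0.33 in PLM (adjusted p = 0.45, limma) and 0.998 in SNI. Plxna1, a semaphorin receptor that guides axons (ENSRNOG00000017003), was at 9.56, 5.92 and 9.66 TPM in JA, 9.09, 19.7 and 13.8 TPM in SNI and 15.1, 13 and 20.7 TPM in PLM, a fold change of 1.01 ± 0.22. Its SNI samples bridged both groups. Jaml, an adhesion molecule of migrating leukocytes (ENSRNOG00000026702), was at 1.5, 4.46 and 2.03 TPM in JA, 1.4, 1.83 and 7.43 TPM in SNI and 8.89, 4.66 and 4.98 TPM in PLM (1.13 ± 0.37), with a narrow gap between JA replicate 2 and the PLM samples. Its unadjusted p in limma was 0.022 with the 6 samples, 0.060 with all 9 samples in the fit, and 0.066, 0.061 and 0.065 without JA replicate 1, JA replicate 3 and PLM replicate 1. The fold change was 0.85 and 0.84 without JA replicate 1 and PLM replicate 1, so this call did not hold. Rpl39, a small ribosomal protein gene with many near-identical copies (ENSRNOG00000034237), was at 0, 8.54 and 4.33 TPM in JA, 0, 75.8 and 0 TPM in SNI and 90.4, 147 and 113 TPM in PLM. Of the SNI samples 1 was high and 2 were listed at 0. The part of reads shared among copies was not tested, so this locus is uncertain. Called loci of the small nuclear RNAs 7SK and U1 stand for only 1 of several loci of that name and are uncertain for the same reason.

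Respiratory chain genes encoded in the nucleus gave 3 higher of 31 tested, the complex I subunits Ndufa5 (0.47 ± 0.12) and Ndufb9 (0.26 ± 0.097) and the complex III subunit Uqcrb (0.34 ± 0.12), and 0 lower. The higher members were 9.68% of the list, beside 5.26% of all loci. The 3 higher became 8 without JA replicate 3, 9 without PLM replicate 3 and 1 without any other sample. The 13 mitochondrial protein genes were all above 0 with a median of 0.25 and 0 passed. Their median was -0.33 for SNI against JA and 0.58 for PLM against SNI.

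Markers of other cell types gave few members past the threshold. Of 15 oligodendrocyte markers 0 passed, with a median of 0.024, a direction that turned to -0.10 without centring and -0.084 with quantile normalization, where 5 and 2 members were lower. The myelin gene Mbp was at 34388, 39893 and 38062 TPM in JA and 37602, 36770.0 and 35043 TPM in PLM. Among oligodendrocyte precursor markers 1 of 11 passed (9.09%, beside 4.72% lower of all loci), Enpp6, a choline phosphodiesterase of newly forming oligodendrocytes. Enpp6 was at 35.01, 31.8 and 36.2 TPM in JA, 23.4, 40.2 and 19.9 TPM in SNI and 16.5, 15.1 and 19.4 TPM in PLM. The PLM samples lay together below sham and the SNI samples spread from the PLM level to above sham, with a fold change of -0.86 ± 0.11 and an unadjusted p of 0.00018 in limma. Of 19 microglia and macrophage markers 1 was lower, the lysosomal Cd68, at 3.83, 2.97 and 4.41 TPM in JA, 2.14, 2.43 and 2.35 TPM in SNI and 2.26, 1.4 and 1.88 TPM in PLM, and 1 was higher, the resting-state purinergic receptor P2ry12, at 10.6, 12.4 and 11.8 TPM in JA, 13.6, 13.9 and 13.3 TPM in SNI and 15.9, 13.3 and 17.3 TPM in PLM. These counts, 5.26% of the list in each direction, were near the 4.72% lower and 5.26% higher of all loci. Cd68 was below sham in both injured groups, with fold changes of -0.63 in SNI and -0.61 in PLM. Aif1, the gene of the microglial marker IBA-1, was at 60.5, 90.2 and 86.4 TPM in JA, 63.7, 61.5 and 60.2 TPM in SNI and 76.1, 62.4 and 73.3 TPM in PLM and did not pass. Endothelial and pericyte (14 tested), Schwann cell (12) and blood cell markers (12) gave 0 lower and 0 higher with all 6 samples. Leaving out 1 sample gave 5 higher endothelial markers without JA replicate 2, and 5 and 6 higher blood markers without JA replicate 3 and PLM replicate 2. The blood list had a median of 0.64, with hemoglobin Hbb at 1615, 1298 and 3464 TPM in JA and 2053, 2201 and 2619 TPM in PLM, with JA replicate 3 the highest and the other sham samples below all PLM samples. Of 11 ependymal and cilia markers 1 was lower (9.09%, beside 4.72% of all loci), the ciliary protein Hydin (-0.42 ± 0.17). Without JA replicate 1, 6 were lower.

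Response programs that act within hours gave no member past the unadjusted threshold with all 6 samples. These were 16 immediate early genes with a median of 0.23 and 18 heat shock and chaperone genes with a median of 0.15. Leaving out 1 sample gave higher members in both lists, at most 5 immediate early genes, without JA replicate 3, and 4 heat shock genes, without JA replicate 1. Of 18 glucocorticoid-induced genes 1 was lower (Mt2A) and 1 higher (Nfkbia), with 5 higher without PLM replicate 2. With all 6 samples each was 5.56% of the list, near the 4.72% lower and 5.26% higher of all loci. The 35 cytosolic ribosomal protein genes gave 0 in either direction with all 6 samples and 11 higher without JA replicate 3. Of 24 Hox genes, which mark the level along the cord, Hoxd8 was lower (-0.22 ± 0.069) and Hoxd9 (0.28 ± 0.072) and Hoxa9 (0.38 ± 0.14) were higher. These shares, 4.17% lower and 8.33% higher, were near those of all loci, and 0 to 3 Hox genes were lower when each sample was left out in turn.

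**Figure D5:**
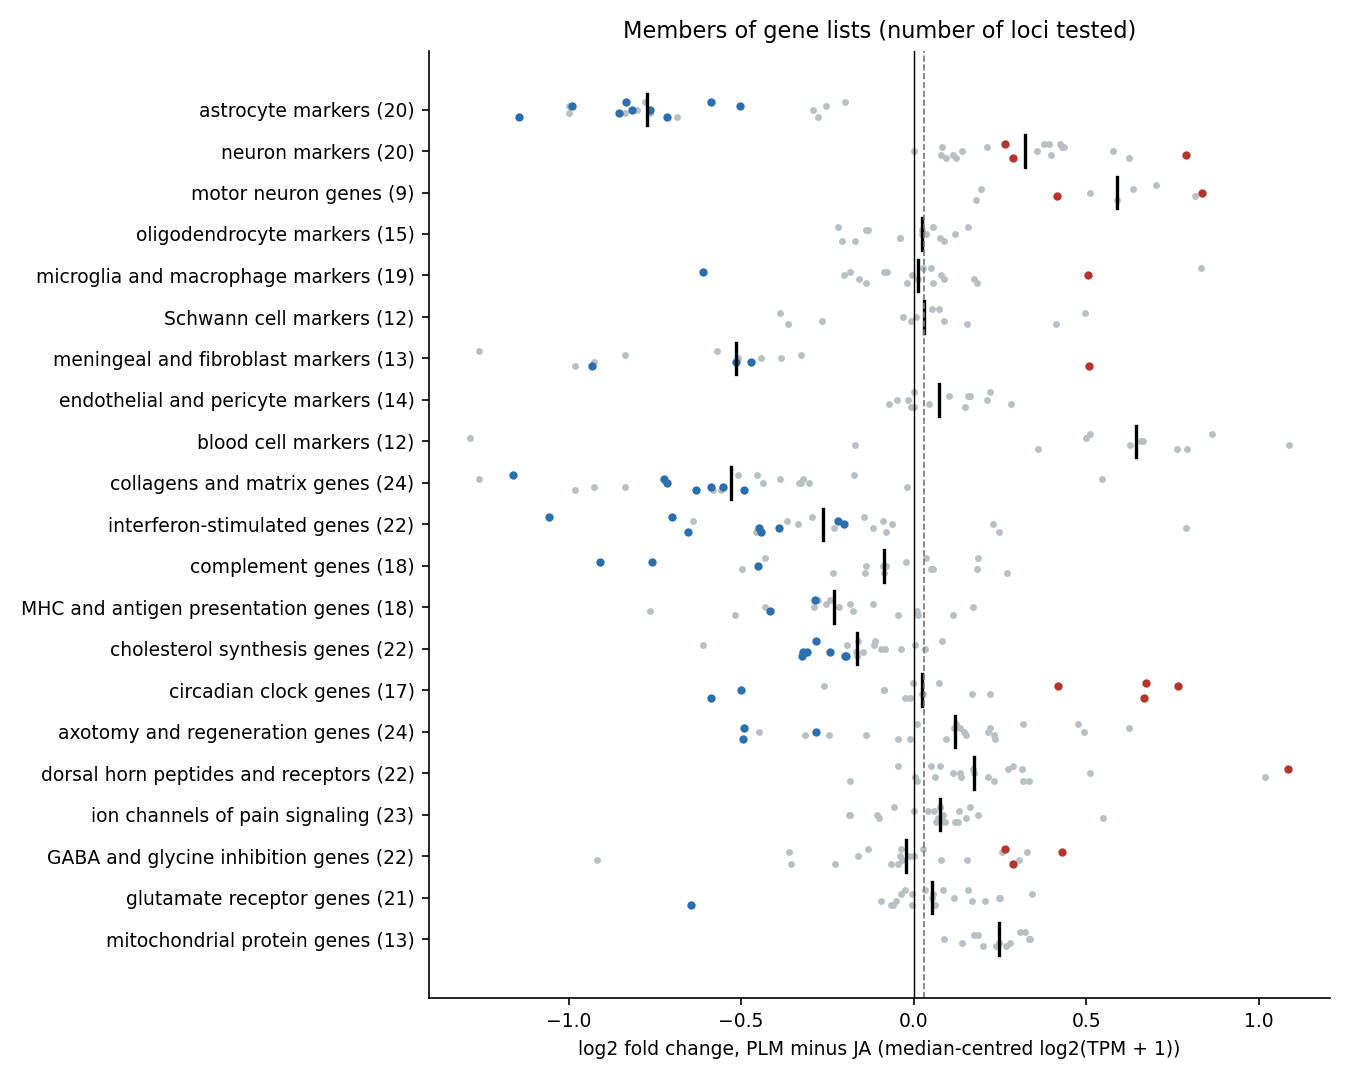
Log2 fold change of PLM minus JA (x axis) for the tested members of 21 gene lists, with the number tested in parentheses; blue and red points passed an unadjusted p under 0.05 in the lower and higher direction, black bars are list medians and the dashed line is the median of all loci. Astrocyte, meningeal, matrix, interferon and cholesterol lists lie to the left of the dashed line, and neuron, motor neuron and blood lists to the right.

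Set beside the untreated injured cord, the genes of the treated cord that stood away from sham fell into different patterns, described here by their levels alone. The astrocyte list had a median of 0.34 in SNI over JA and of -1.11 in PLM over SNI, although the mean levels of all SNI samples lay within the range of sham and some members, Gfap (-0.11) and S100b (-0.089) among them, had fold changes slightly below 0 in SNI. The matrix list had a median of -0.24 in SNI over JA and -0.23 in PLM over SNI on the centred scale, with SNI replicate 1 in the PLM range and the other SNI samples in the sham range. Its summed TPM was 1253 to 1708 in JA, 1355 to 1804 in SNI and 921 to 1161 in PLM, so by that measure SNI was not below sham. Interferon-stimulated genes stood at -0.11 and -0.19, and cholesterol synthesis genes at -0.054 and -0.12. Neuron markers stood at 0.19 for SNI over JA and 0.010 for PLM over SNI, and motor neuron genes at 0.75 and -0.24. In both lists JA replicate 1 lay above at least 1 sample of each injured group and below SNI replicates 1 and 3. JA replicates 2 and 3 lay below all injured samples. In all, limma called 45 loci lower and 38 higher in SNI than in JA, of 15557 tested and with 0 past the adjusted threshold, and 102 lower and 64 higher in PLM than in SNI, of 15474 tested and with 126 past the adjusted threshold.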

How the data were processed

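RNA-seq of ipsilateral L3-L6 rat spinal cord was compared between PLM and JA, with 3 samples each. The labels list CASAVA, fastp 0.19.5 and StringTie, and the study's methods describe removal of adaptors and low-quality reads, alignment and expression values computed with StringTie. The only genome build in the processing notes is the human GRCh38.p13, although the locus identifiers are those of rat, so no coordinates of the deposited loci are given. The values are TPM as deposited by the authors, which keep no read depth, so a count test could not be run and limma took the place of the study's count-based test.

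Loci averaging 1 TPM or more across the 6 samples were kept, log2(TPM + 1) was centred on each sample's median, and limma 3.58.1 (R 4.3.3) with a variance trend was fitted, two-sided, without covariates. Calls used an unadjusted p under 0.05 with an absolute log2 fold change above 1, as in the study. Counts at an unadjusted p under 0.05 with any fold change were added after seeing the data, and so were the genes named for that p alone. The scripts were tested on simulated data. Groups came from the sample labels.

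Named genes were the 12 lower and 12 higher called loci with the smallest p, a proper gene symbol, no overlap between samples and 1 TPM or more on average in the group that was higher (fewer where fewer met this), called members of the lists, the first 3 genes of each cell type list, a set of genes fixed by name, most of which the study discusses, and loci at an adjusted p under 0.05. The 34 gene lists held 675 names, of which 657 matched. The members and lists were chosen with earlier results of these data known. Where a name had several loci, the one with the highest mean was used. The 16 alternatives changed centring, scaling, pseudocount, filter, samples, block, variance trend or loci, 1 at a time. Promoters came from RefSeq (GRCr8), matched by symbol or synonym. A few members of the lists are counted but not reported by name here.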

Additional observations from a re-analysis of the deposited data

How the results depend on the processing

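TPM keep no read depth, so sampling error at low values cannot be set apart from the spread between samples. Against 47 loci lower in PLM than in JA there were 101 without centring, 86 with a pseudocount of 0.1, 27 with at least 1 TPM in every sample and 50 to 98 when each sample was left out in turn, the highest without JA replicate 3. Against 54 higher loci there were 20 with at least 1 TPM in every sample, 34 with Ensembl loci only and 47 to 82 with a sample left out, the highest again without JA replicate 3. Of the 2 lower loci past the adjusted threshold, 1 passed with at least 1 TPM in every sample and 1 with all 9 samples in the fit, and the number with a sample left out was 0 (without PLM replicate 1) to 10 (without JA replicate 3). No higher locus passed it, against 1 without centring, 1 after rescaling without mitochondrial genes, 2 with a pseudocount of 0.1, 1 without a filter, 1 with at least 1 TPM in every sample, 1 without a variance trend and 0 to 2 with a sample left out. The filter of at least 1 TPM in every sample leaves out AABR07073039.1. It also leaves out the other called loci at 0 in a whole group, 10 lower loci at 0 in PLM in all and 15 higher ones at 0 in JA. The cause of the shifts was otherwise not tested.

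Deviations of same-numbered JA and PLM samples correlated at -0.025, -0.0094 and 0.11, and those of differently numbered samples at -0.073 to 0.089. The highest value was that of the replicates numbered 3, which were both the highest of their groups in Prx and Dcn. Whether same-numbered samples share a source is not given in the labels and was not tested. The main fit did not pair them. With the replicate block there were 65 lower and 64 higher loci, with 0 in either direction past the adjusted threshold.

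Beside Gfap, Calcb and Jaml, described above, named genes whose fold change dropped under 1 on the log2 scale without 1 sample were A2m (-0.78 without JA replicate 3, -0.97 without PLM replicate 1), Ifitm3 (-0.93 without JA replicate 1 or PLM replicate 2), Islr (-0.88 without JA replicate 3, -0.95 without PLM replicate 1 or 2), Mmp14 (-0.92 without JA replicate 3, -0.997 without PLM replicate 1), Msc (-0.87 without JA replicate 2, -0.91 and -0.98 without PLM replicates 1 and 2), Plxna1 (0.81 without JA replicate 2, 0.86 without PLM replicate 3, 0.88 without centring) and Slc13a3 (-0.96 without JA replicate 1).

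Among the single genes refitted under each alternative, signs turned for the cell type markers listed here. Other genes given only with a value, such as Clock and Cry2, were not followed singly. Without centring the values were -0.12 for Cspg4, -0.11 for Cx3cr1, -0.081 for Flt1, -0.036 for Mbp, -0.088 for Mog, -0.084 for Pdgfra, -0.12 for Prx and -0.031 for Rbfox3. With quantile normalization they were -0.010 for Cx3cr1, -0.0015 for Flt1, -0.051 for Mbp and -0.084 for Mog. After rescaling without mitochondrial genes they were 0.0048 for Cldn5 and 0.0058 for Pmp22, with a pseudocount of 0.1 they were 0.0042 for Cldn5, 0.0069 for Pmp22 and -0.000412 for Cspg4, and with Ensembl loci only 0.0022 for Cldn5 and 0.00226 for Pmp22. With a sample left out, the ranges were -1.02 to 1.32 for Pmp22, -1.22 to 1.43 for Prx, -0.24 to 0.095 for Aif1, -0.087 to 0.17 for Cx3cr1, -0.016 to 0.14 for Mbp, -0.039 to 0.079 for Mog, -0.076 to 0.077 for Cspg4, -0.11 to 0.11 for Cldn5, -0.052 to 0.14 for Flt1, -0.38 to 0.026 for Ccdc153 and -0.39 to 0.060 for Tmem212.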

Other observations

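Some called genes lay outside every list and the rule for named genes, and they are given here as values chosen after they were seen. Kcnk12, a two-pore-domain potassium channel subunit, was at 2.29, 17.9 and 16.7 TPM in JA, 7.2, 2.21 and 2.47 TPM in SNI and 1.81, 1.77 and 1.78 TPM in PLM. JA replicate 1 was near the PLM level and the other sham samples were far above it, and the log2 fold change was -1.76 ± 0.70. Cd4, the coreceptor of helper T cells, which rat microglia and macrophages also express, was at 7.6, 13.5 and 11.2 TPM in JA, 3.39, 13.4 and 7.78 TPM in SNI and 1.98, 2.9 and 8.02 TPM in PLM (-1.16 ± 0.42), with PLM replicate 3 inside the sham range. Mfap4, a protein of elastic fibres, was at 12.3, 9.22 and 2.4 TPM in JA, 0, 5.44 and 2.01 TPM in SNI and 0.12, 3.23 and 0.89 TPM in PLM (-1.77 ± 0.62), and JA and PLM overlapped. Col23a1, a transmembrane collagen, was at 8.67, 9.96 and 16.5 TPM in JA, 8.82, 14.1 and 8.55 TPM in SNI and 2.06, 4.8 and 6.66 TPM in PLM (-1.13 ± 0.38), with all PLM samples below sham.

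Apold1, an early response gene of the vascular endothelium, was higher in PLM. It was at 22.2, 15.4 and 36.6 TPM in JA, 41, 111 and 42.7 TPM in SNI and 67.3, 28.1 and 58.1 TPM in PLM, a log2 fold change of 1.14 ± 0.44. All SNI samples were above all sham samples, and PLM replicate 2 lay within the sham range.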
